A study of Mus musculus with 7 samples.

Results

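Red blood cells are made from erythroblasts, and the genes followed here are those that such cells use to commit to the lineage, take up iron, make heme and build the red cell membrane. They were 36 symbols chosen for these functions, and 34 of them were rows of the deposited expression table with a status of OK in all 7 libraries, of 23508 such rows in all. One of the other symbols, Dmtn, is listed under its older symbol Epb4.9 and its values are given separately. The last is not analysed here. All 34 passed the filter on low values used for testing, a mean of at least 1 FPKM, a level corrected for transcript length and for the number of mapped fragments, which 10065 rows passed.

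RNA was sequenced from mouse splenocytes from which CD43-bearing cells had been removed with magnets. T cells, myeloid cells and activated B cells carry CD43, so resting B cells are enriched. The cKO group holds 4 libraries from C57Bl/6 mice with a conditional knockout of the transcription factor gene Foxp1 by a Cre recombinase active in B-lineage cells, and the wild type group holds 3 libraries from C57Bl/6 mice. Libraries cKO 2, cKO 3 and wild type 1 carry lane 7 in their labels, and cKO 1, cKO 4, wild type 2 and wild type 3 carry lane 5. The labels name no Cre-carrying control, give no ages, and do not say whether each library is a different animal. The p-values therefore rest on the variation among these libraries, part of which may be technical. Erythroid cells of these mice are not where the deletion was directed.

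Foxp1 itself stood at 21.3, 18.9, 18.4 and 29.0 FPKM in cKO 1 to 4, against 33.4, 38.3 and 42.7 FPKM in wild type 1 to 3. The groups did not overlap, at 21.9 ± 4.9 FPKM in cKO and 38.1 ± 4.66 FPKM in wild type (SD, n = 4 and 3), with a two-sided exact permutation p of 0.0571 for the difference of mean log2 values, where 0.0286 is the smallest p that 35 splits allow. The value covers the whole gene, exons outside the deleted part included. B cell identity was present in every library: Cd79b, a signalling chain of the B cell receptor, had 611 to 775 FPKM in cKO and 1051 to 1141 FPKM in wild type libraries, and its partner Cd79a had 98.7 to 199 FPKM in cKO and 153 to 236 FPKM in wild type libraries. Depth is not given in the files.

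In the mouse the spleen keeps making red cells in adult life, in its red pulp, and increases this output under stress. The program is run by GATA1 with its cofactor FOG1 (Zfpm1), by TAL1 and by KLF1, a zinc finger activator of globin, heme and membrane genes. Erythropoietin keeps the early cells alive, transferrin brings them iron, mitochondria and cytosol share the steps of heme synthesis, and a spectrin and ankyrin skeleton anchored to band 3 gives the finished cell its shape.

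Promoter windows were searched for recognition letters of these regulators. RefSeq promoter windows of 300 bases on GRCm38.p6 ran from 250 bases before a start site through the first 50 of the transcript. They were matched by current or older symbol for 26 of the 34 genes, with 31 windows in all. Fech was left out of this search because of its chromosome. A pair of motifs was searched on both strands. The first is the GATA form AGATAA with the form that ends in G, written AGATAG, the form that starts with T, written TGATAA, and the form with both changes, written TGATAG. The second is CCNCNCCC, the letters known to be bound by KLF1, whose matches may overlap each other. GATA forms were present in 48.4% of the 31 windows (15 of 26 genes) and in 29.8% of all 32851 windows, and CCNCNCCC in 71.0% of the 31 (20 of 26 genes) and in 49.5% of all, shares that were not tested. A match is a description of letters and not a site shown to be bound. The windows of 5 genes are shown in the direction of transcription, with the matches in capitals: those of a regulator, of the erythropoietin receptor, of the first enzyme of heme synthesis and of a surface protein, each with a GATA form read on the opposite strand, and that of Slc25a38, the gene whose level varied least here.
Klf1, chr8:84901732-84902031, plus strand: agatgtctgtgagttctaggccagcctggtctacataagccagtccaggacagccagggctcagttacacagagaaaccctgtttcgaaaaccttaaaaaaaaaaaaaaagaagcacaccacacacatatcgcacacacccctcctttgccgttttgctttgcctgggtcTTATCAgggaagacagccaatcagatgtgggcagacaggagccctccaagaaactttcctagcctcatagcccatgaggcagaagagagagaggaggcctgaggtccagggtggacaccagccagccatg
Epor, chr9:21963527-21963826, minus strand: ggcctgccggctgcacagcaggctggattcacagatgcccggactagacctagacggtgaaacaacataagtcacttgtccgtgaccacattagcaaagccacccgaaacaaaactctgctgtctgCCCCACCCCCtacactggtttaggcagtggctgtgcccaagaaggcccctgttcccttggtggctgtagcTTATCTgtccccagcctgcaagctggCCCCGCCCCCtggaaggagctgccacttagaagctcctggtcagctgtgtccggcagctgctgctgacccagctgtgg
Alas2, chrX:150547167-150547466, plus strand: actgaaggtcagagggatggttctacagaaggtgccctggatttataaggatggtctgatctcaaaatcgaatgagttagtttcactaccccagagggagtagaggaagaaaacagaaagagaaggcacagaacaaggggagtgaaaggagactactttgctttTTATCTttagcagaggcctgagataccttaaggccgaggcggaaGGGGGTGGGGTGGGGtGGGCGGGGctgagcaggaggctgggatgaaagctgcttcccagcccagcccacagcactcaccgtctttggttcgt
Rhag, chr17:40810899-40811198, plus strand: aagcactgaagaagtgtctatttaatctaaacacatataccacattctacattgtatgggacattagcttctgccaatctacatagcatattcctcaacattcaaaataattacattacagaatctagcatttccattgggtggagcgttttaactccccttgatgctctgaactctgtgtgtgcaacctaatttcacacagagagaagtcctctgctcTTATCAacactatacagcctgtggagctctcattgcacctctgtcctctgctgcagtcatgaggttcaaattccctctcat
Slc25a38, chr9:120110132-120110431, plus strand: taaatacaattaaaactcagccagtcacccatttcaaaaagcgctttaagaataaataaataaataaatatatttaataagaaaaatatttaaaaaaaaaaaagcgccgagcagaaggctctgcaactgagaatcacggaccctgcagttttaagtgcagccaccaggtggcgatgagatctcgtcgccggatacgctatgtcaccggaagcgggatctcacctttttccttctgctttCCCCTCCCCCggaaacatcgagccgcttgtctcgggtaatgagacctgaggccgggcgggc
The Epor and Alas2 windows each hold 1 GATA form and 4 matches of CCNCNCCC, some of them overlapping. Those of Klf1 and Rhag hold 1 GATA form and no match of CCNCNCCC, and that of Slc25a38 holds 2 matches of CCNCNCCC and no GATA form. Levels of these 5 genes are given with their groups below.

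Across the 7 libraries the genes went up and down together and over a wide range. The mean of log2(FPKM + 0.5) over the 34 genes was 5.28, 5.66, 6.42 and 2.63 in cKO 1 to 4, against 4.76, 3.02 and 2.08 in wild type 1 to 3. Libraries cKO 1, cKO 2, cKO 3 and wild type 1 were thus high, while cKO 4 lay among the low wild type libraries 2 and 3. The highest library was cKO 3 for 33 genes and cKO 1 for Car1, and the lowest was wild type 3 for 32 genes and cKO 4 for Slc25a37 and Slc25a38. A single order of all 7 libraries (cKO 3, cKO 2, cKO 1, wild type 1, wild type 2, cKO 4, wild type 3, high to low) held for 14 of the 34 genes.

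The fold between the highest and the lowest library had a median of 42.1 over the genes and ran from 3.39 for Slc25a38 to 104.2 for Rhd. With 0.5 FPKM added to each value, that median was 21.5, against 2.15 over all 10065 rows tested. By role, the median fold was 71.3 for the 4 surface proteins, 59.2 for the 6 membrane skeleton genes, 49.3 for the 6 regulators, 42.0 for the 5 cytosolic genes, 17.3 for the 3 receptor and iron genes, 10.3 for the 7 heme enzymes and 7.81 for the 3 mitochondrial carriers. Over the 7 libraries, which share their lane and composition differences, the correlation of a gene with the mean of the other genes on the log scale was above 0.95 for 31 of 34 and lowest for Trf, at 0.787. In a bulk sample, fewer cells of a type and less RNA per cell cannot be told apart.

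**Figure D1:**
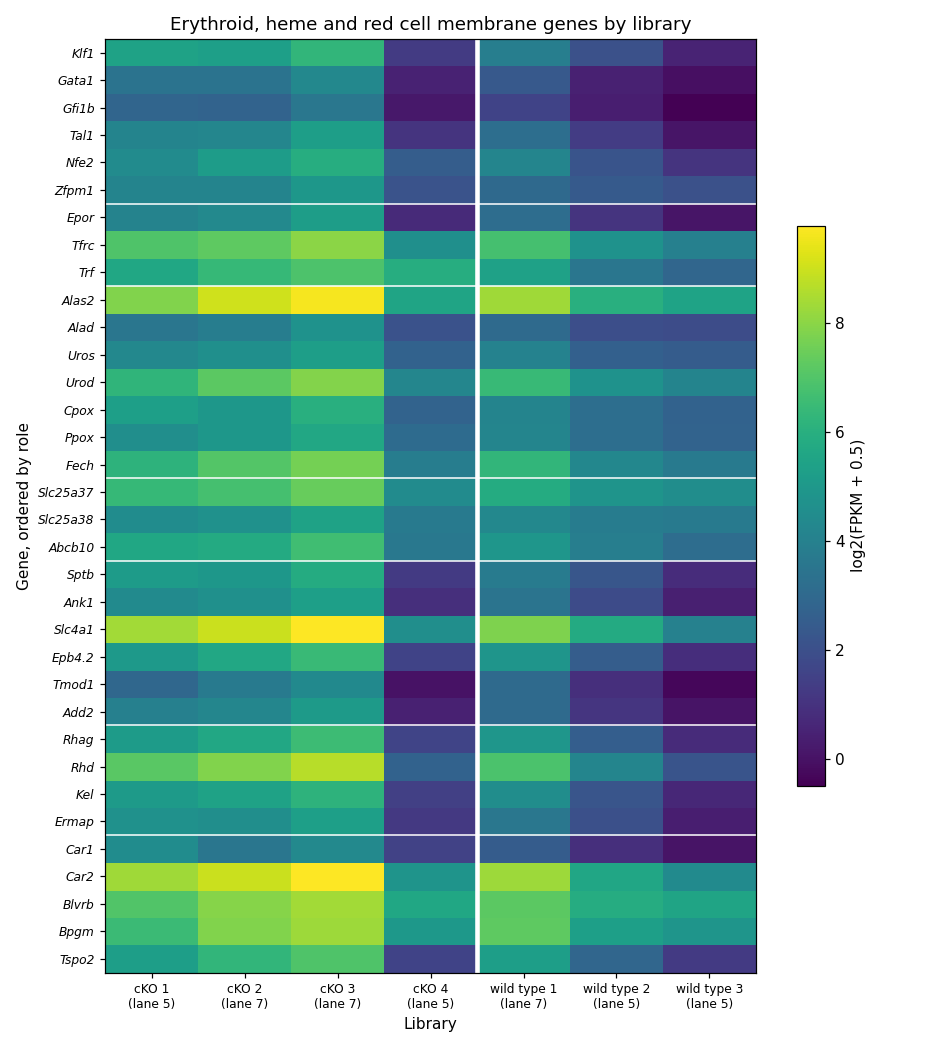
log2(FPKM + 0.5) of the 34 genes (rows, grouped by role) in the 7 libraries (columns, cKO left of the white line and wild type right of it, lane in brackets); yellow is high and dark purple low. Columns cKO 1, 2, 3 and wild type 1 are bright, while cKO 4 resembles wild type 2 and wild type 3 in nearly every row, Trf being the row that stays bright in cKO 4.

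Each regulator was higher in cKO 1, 2, 3 and wild type 1 than in any of the other libraries. Klf1 had 42.8, 39.3, 77.6 and 1.92 FPKM in cKO 1 to 4, against 14.7, 3.71 and 0.956 FPKM in wild type 1 to 3. Gata1 had 10.1, 10.3, 19.4 and 0.887 FPKM in cKO and 4.70, 0.861 and 0.457 FPKM in wild type libraries. In both genes cKO 1, 2 and 3 exceeded every wild type library and cKO 4 fell within the wild type range. Nfe2, the p45 subunit of a globin gene activator that is also used by megakaryocytes, had 21.9, 36.3, 59.7 and 5.36 FPKM in cKO and 17.6, 4.02 and 1.57 FPKM in wild type libraries. Tal1 reached 38.0 FPKM in cKO 3 and 0.557 FPKM in wild type 3. Gfi1b, a repressor needed for erythroid and megakaryocytic development, ran between 0.622 and 11.6 FPKM in cKO and between 0.206 and 2.49 FPKM in wild type libraries. Zfpm1 varied less, with 3.87 to 30.8 FPKM in cKO and 3.64 to 7.58 FPKM in wild type libraries.

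Among receptors and iron delivery, the erythropoietin receptor gene Epor had 16.5, 19.9, 36.7 and 1.14 FPKM in cKO 1 to 4 and 8.67, 1.55 and 0.547 FPKM in wild type 1 to 3. Tfrc, the transferrin receptor that dividing lymphocytes also carry, had 123, 152, 261 and 24.1 FPKM in cKO and 109, 26.1 and 15.6 FPKM in wild type libraries. Both followed the common order, with cKO 4 beside the 2 low wild type libraries. Trf, which encodes transferrin and is also made by macrophages, did not: it had 49.3, 84.8, 121 and 59.3 FPKM in cKO, against 41.6, 11.2 and 6.96 FPKM in wild type libraries. It was the only one of the 34 genes whose genotype groups did not overlap, while 7.99% of all rows tested had every cKO library above every wild type library and 2.14% had every cKO library below. The ratio of Trf to Tfrc was 0.402, 0.559, 0.463 and 2.46 in cKO 1 to 4 and 0.380, 0.429 and 0.447 in wild type 1 to 3, so that cKO 4 stood apart from the other 6.

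Heme synthesis starts in the mitochondrion, where ALAS2 is its rate-limiting enzyme in erythroid cells. Alas2 had 229, 535, 802 and 45.6 FPKM in cKO and 324, 64.0 and 44.1 FPKM in wild type libraries. Fech, whose enzyme puts iron into protoporphyrin in the last step, had 70.9, 131, 202 and 14.0 FPKM in cKO and 76.1, 18.8 and 12.8 FPKM in wild type libraries. For both genes wild type 1 exceeded cKO 1, and all 3 lane 7 libraries exceeded all 4 lane 5 libraries. Urod, which acts in the cytosol, had the same separation by lane, at 147 and 238 FPKM in cKO 2 and 3 and 85.6 FPKM in wild type 1, against 17.4 to 74.7 FPKM in the lane 5 libraries. The remaining enzymes were lower in level in cKO 3: Alad ran between 3.72 and 26.8 FPKM in cKO and 3.19 and 7.84 FPKM in wild type libraries. Uros had 6.18 to 37.9 FPKM in cKO and 5.08 to 16.3 FPKM in wild type, Cpox 6.42 to 63.0 FPKM in cKO and 6.09 to 17.2 FPKM in wild type, and Ppox 8.13 to 51.2 FPKM in cKO and 6.42 to 17.7 FPKM in wild type libraries. Of the mitochondrial carriers, the iron importer mitoferrin 1 (Slc25a37) had 83.3, 107, 167 and 21.4 FPKM in cKO and 56.7, 27.8 and 22.7 FPKM in wild type libraries. Slc25a38, which carries glycine for the first step, had 22.0, 25.4, 42.3 and 12.5 FPKM in cKO and 19.4, 13.5 and 12.7 FPKM in wild type libraries, a range of 12.5 to 22.0 FPKM over the lane 5 libraries alone. Abcb10, a transporter of the inner mitochondrial membrane that stabilises mitoferrin 1, ran from 11.7 to 101 FPKM in cKO and from 8.45 to 30.0 FPKM in wild type libraries.

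The membrane skeleton and its band 3 anchor differed widely between libraries. Slc4a1, which encodes the anion exchanger band 3, had 333, 497, 881 and 23.5 FPKM in cKO 1 to 4, against 222, 55.4 and 15.8 FPKM in wild type 1 to 3. Ank1, the ankyrin that ties band 3 to spectrin, had 20.8, 25.0, 39.8 and 1.35 FPKM in cKO and 10.6, 3.09 and 0.815 FPKM in wild type libraries. Sptb, the erythroid beta spectrin, had 35.3, 30.6, 55.9 and 1.89 FPKM in cKO and 13.3, 4.28 and 1.25 FPKM in wild type libraries. In all 3 genes, cKO 4 was lower than wild type 2 and higher than wild type 3. The band 3 partner protein 4.2 (Epb4.2) ranged from 2.48 to 89.8 FPKM in cKO and 1.31 to 29.0 FPKM in wild type, the actin capping Tmod1 from 0.507 to 20.4 FPKM in cKO and 0.311 to 7.95 FPKM in wild type, and beta adducin (Add2) from 0.851 to 33.6 FPKM in cKO and 0.535 to 7.86 FPKM in wild type libraries. Epb4.9, the row for dematin (Dmtn), had 18.8, 24.0, 44.2 and 1.15 FPKM in cKO and 9.47, 2.42 and 0.590 FPKM in wild type libraries, and its order of libraries was that of Slc4a1.

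Surface proteins that carry blood groups behaved alike. Rhag, the Rh-associated glycoprotein, had 34.8, 50.6, 92.7 and 2.58 FPKM in cKO and 29.7, 5.52 and 1.21 FPKM in wild type libraries. Ermap, an erythroid adhesion protein of the immunoglobulin superfamily, had 25.4, 23.3, 39.1 and 1.82 FPKM in cKO and 11.6, 3.50 and 0.779 FPKM in wild type libraries. Rhd was the most variable gene, between 6.12 and 417 FPKM in cKO and between 4.00 and 116 FPKM in wild type libraries, and the Kell protein gene Kel ran from 2.22 to 70.5 FPKM in cKO and from 1.07 to 22.8 FPKM in wild type libraries. The ratio of cKO 1 to cKO 4, both lane 5 libraries of the same genotype, was between 13.5 (Rhag) and 23.2 (Rhd) for these 4 genes.

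The cytosolic enzymes included the most abundant genes. Car2, a carbonic anhydrase, had 319.9, 506, 891 and 27.7 FPKM in cKO and 309, 48.2 and 21.2 FPKM in wild type libraries, while Car1, the other cytosolic carbonic anhydrase, had 22.4, 11.1, 20.0 and 2.37 FPKM in cKO and 5.20, 1.35 and 0.532 FPKM in wild type libraries. The ratio of Car1 to Car2 was 0.0701 in cKO 1 and 0.0855 in cKO 4, while cKO 2, cKO 3 and the wild type libraries lay between 0.0168 and 0.0280. Bpgm, which makes the 2,3-bisphosphoglycerate that lowers oxygen affinity, had 92.3, 231, 309 and 31.5 FPKM in cKO and 153, 39.5 and 29.0 FPKM in wild type libraries. Blvrb, a flavin and biliverdin reductase of red cells, had 128, 244, 334 and 49.3 FPKM in cKO and 147, 58.8 and 45.7 FPKM in wild type libraries. In both Bpgm and Blvrb every lane 7 library lay above every lane 5 library. Tspo2, an erythroid member of the translocator protein family, showed the same separation, narrowly, with 38.6 FPKM in wild type 1 and 38.3 FPKM in cKO 1.

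**Figure D2:**
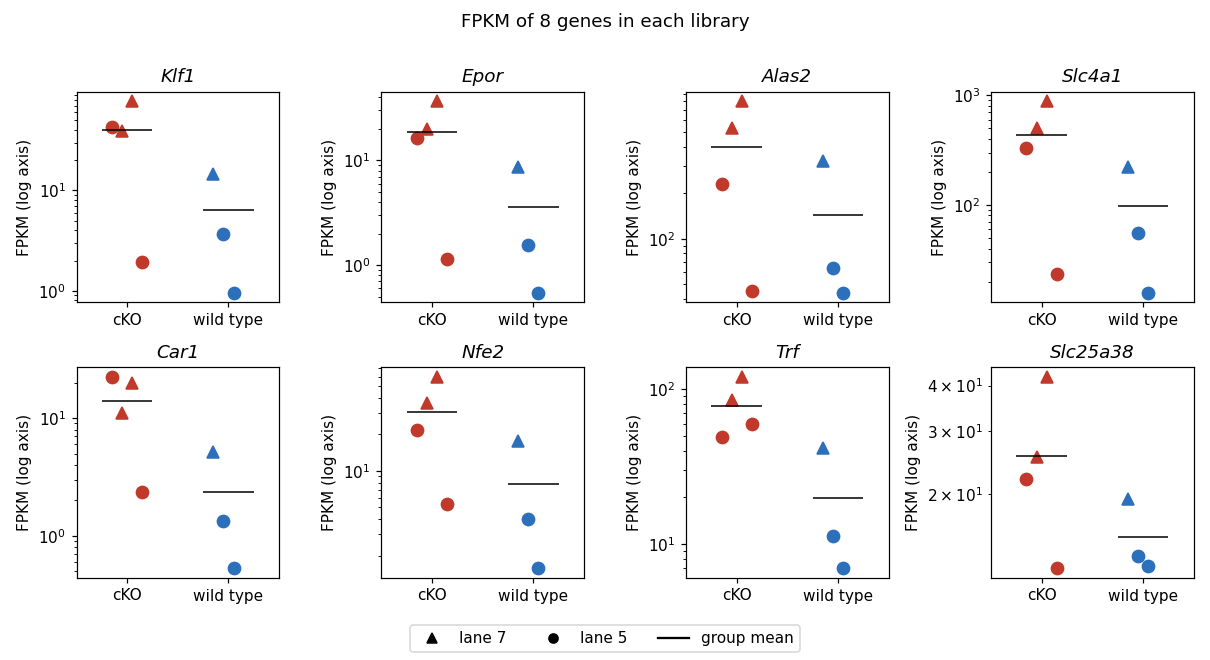
FPKM (log axis) of 8 genes, 1 point per library, cKO in red and wild type in blue, triangles for lane 7 and circles for lane 5, with a line at each group's mean. In Klf1, Epor, Alas2, Slc4a1, Nfe2, Car1 and Slc25a38 the cKO 4 circle lies below the other cKO points and within the wild type range or, for Slc25a38, just under it, while for Trf, cKO 4 at 59.3 FPKM lies above all wild type points.

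The comparison of genotypes asks how expression in splenocytes of mice with the conditional knockout of Foxp1, directed to B-lineage cells, differs from wild type. The mean level of all 34 genes was higher in cKO than in wild type, and no gene passed the test. On the log2(FPKM + 0.5) scale, where low genes show too small a change, the log2 fold change of cKO over wild type had a median of 1.88 and ran from 0.63 for Slc25a38 to 2.40 for Klf1, against a median of -0.09 over all genes tested, of which 38.5% were positive. Without wild type 3 the median over the 34 genes was 1.07. With limma and Benjamini-Hochberg adjustment, 0 of 34 had an adjusted p under 0.05, where 1.27% of all genes tested were called higher and 0.0497% lower. At an unadjusted p under 0.05 there were 5, where 9.56% of all genes were higher. Klf1, at 40.4 ± 30.9 FPKM in cKO and 6.45 ± 7.26 FPKM in wild type (SD, n = 4 and 3), had a log2 fold change of 2.40 ± 1.19 (SE) with a limma adjusted p of 0.546. Alas2, at 403 ± 334 FPKM in cKO and 144 ± 156 FPKM in wild type, had 1.41 ± 1.00 and a limma adjusted p of 0.788. In both genes the SD was of the same order as the mean in each group. Trf had the smallest limma adjusted p of the 34 genes, 0.112, with 78.5 ± 31.8 FPKM in cKO, 19.9 ± 18.9 FPKM in wild type and a log2 fold change of 2.27 ± 0.56 (SE).

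Since lanes held the genotypes in unequal numbers, the fit was repeated with lane as a term. All 34 log2 fold changes of cKO over wild type stayed positive, with a median of 1.41 and a range of 0.50 to 2.11, against a median of 0.00 over all genes. The median over the 34 genes was 0.62 without cKO 1 and 2.17 without cKO 4. The genes that rose were Trf by 2.04 ± 0.28 (SE, limma adjusted p = 0.000837), Car1 by 2.11 ± 0.57 (limma adjusted p = 0.0377) and Nfe2 by 1.69 ± 0.42 (limma adjusted p = 0.0239). This is 3 of 34 where 9.59% of all genes tested were called higher and 1.19% lower, a share near the background. Car1 averaged 14.0 ± 9.13 FPKM in cKO and 2.36 ± 2.49 FPKM in wild type, and Nfe2 30.8 ± 23.0 FPKM in cKO and 7.74 ± 8.66 FPKM in wild type (SD, n = 4 and 3). Gata1, at 1.65 ± 0.53 (SE, limma adjusted p = 0.0757), and Epor, at 1.74 ± 0.61 (limma adjusted p = 0.10), did not pass.

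These counts moved with some single libraries and not with others. With the lane term, all 34 genes passed the limma threshold without cKO 4, where 1417 of all genes tested were called higher. Of the 34, 25 passed without wild type 2 (1110 of all genes higher) and 8 without cKO 1 (1057 higher). Only 1 passed without cKO 2 or without cKO 3 (919 and 653 of all genes higher). Leaving out wild type 1 or wild type 3 kept the calls at Car1, Nfe2 and Trf (747 and 729 of all genes higher). Trf passed in each of these fits. With the lane term and each library centred on its median, or with quantile normalization, Trf was the only one of the 34 that passed. Within lane 5, 1 gene (Trf) passed limma, where 587 of all genes tested were called higher and 25 lower. Within lane 7, wild type 1 is a lone sample assumed to vary like the 2 cKO libraries. There the log2 fold changes of the 34 genes ran from 0.74 to 1.88, with a median of 1.28, against a median of -0.11 over all genes tested.

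**Figure D3:**
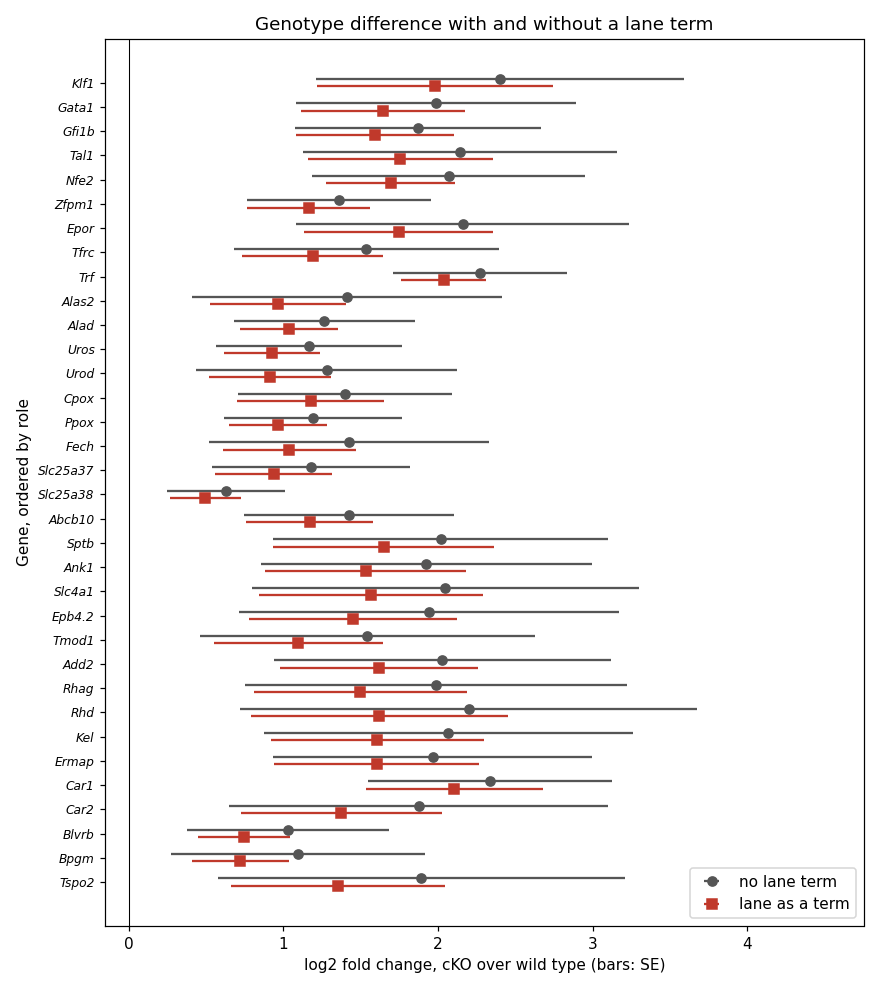
Log2 fold change of cKO over wild type with its standard error for each of the 34 genes, from limma without a lane term (grey circles) and with lane as a term (red squares). Every point lies right of 0, from 0.50 to 2.40, and the bars of Trf are shorter than those of the other regulator, receptor and membrane genes.

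The genes were also compared between lanes. In the fit with both terms, the log2 fold change of lane 7 over lane 5 was positive for all 34, with a median of 2.23 and a range of 0.80 for Slc25a38 to 3.47 for Rhd, while the median over all genes tested was -0.50 and 17.5% of them were positive. Without cKO 4 the median over the 34 genes was 1.55 for lane, and 2.17 for genotype in a fit with both terms. By limma, 33 of the 34 rose in lane 7, with adjusted p from 0.000407 (Bpgm, 2.24 ± 0.31, SE) upward, where 8.67% of all genes tested were called higher and 58.2% lower. Car1 was the exception, at 1.37 ± 0.57 with a limma adjusted p of 0.0522. With limma's robust setting, which lets unusually variable genes keep more of their own variance, 11 of 34 passed, namely Alad, Alas2, Blvrb, Bpgm, Fech, Nfe2, Ppox, Slc25a38, Trf, Urod and Uros. Heme enzymes make up 6 of these 11, a share that was not tested. Of all genes tested, the robust setting called 749 higher and 6076 lower in lane 7.

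Alas2 averaged 554 FPKM over the 3 lane 7 libraries and 95.6 FPKM over the 4 lane 5 libraries, a log2 fold change of 2.64 ± 0.44 (SE, limma adjusted p = 0.000791). Slc4a1 averaged 533 FPKM in lane 7 and 107 FPKM in lane 5, at 2.89 ± 0.72 (limma adjusted p = 0.00552). No overlap between lanes was seen for 7 of the 34 genes, Alas2, Urod, Fech, Tmod1, Blvrb, Bpgm and Tspo2, where 2.83% of all genes tested had every lane 7 library higher and 54.9% every lane 7 library lower. Whether lane stands for the run itself or for anything that went with it cannot be told apart from the labels. The difference between genotypes did not differ detectably between lanes: with an interaction term, which leaves 3 residual degrees of freedom, limma called 0 of the 34, and 5 of all genes tested, with log2 differences of -1.27 (Trf, unadjusted p = 0.0114) to 0.63 (Zfpm1) and 1 of the 34 at an unadjusted p under 0.05. Of all genes tested, 0.0199% were called higher and 0.0298% lower in that test, and 2.02% were lower at an unadjusted p under 0.05.

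**Figure D4:**
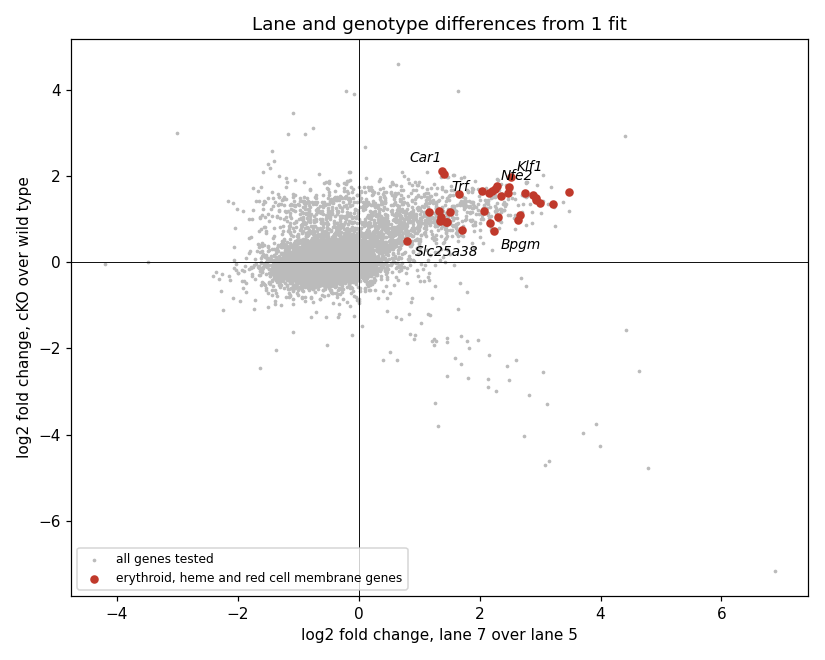
Log2 fold change of cKO over wild type (vertical) against that of lane 7 over lane 5 (horizontal), both from 1 limma fit, for all genes tested (grey) and the 34 genes (red). The red points all lie in the upper right quadrant, between 0.80 and 3.47 on the lane axis and 0.50 and 2.11 on the genotype axis, while most grey points lie left of the vertical line.

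Libraries of one genotype and lane also differed widely from each other. cKO 1 and cKO 4 are both cKO and both lane 5, and the ratio of cKO 1 to cKO 4 had a median of 10.2 over the 34 genes, from 0.832 for Trf, the only ratio below 1, to 23.2 for Rhd. Against wild type 2, a lane 5 library, cKO 1 was higher for all 34 genes with a median ratio of 5.52, whereas cKO 4 was lower for 28 with a median ratio of 0.739, Trf standing at 5.29 and Car1 at 1.76. Against wild type 3, the other lane 5 wild type library, cKO 4 was higher for 32 of the 34 genes with a median ratio of 1.52.

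The high libraries also differed in which of the genes were highest. The ratio of cKO 1 to wild type 1, which came from different lanes, was above 1 for 27 genes and below 1 for 7, with a median of 1.39. By role its median was 2.21 for regulators, 1.71 for the membrane skeleton, 1.47 for mitochondrial carriers, 1.36 for surface proteins, 1.19 for heme enzymes, 1.19 for receptors and iron genes and 0.994 for cytosolic genes. Car1 at 4.32, Klf1 at 2.92 and Gfi1b at 2.73 were at one end, and Bpgm at 0.605, Alas2 at 0.707 and Blvrb at 0.868 at the other. Between the lane 7 libraries cKO 2 and wild type 1 the ratio was above 1 for all 34 genes, from 1.31 for Slc25a38 to 2.68 for Klf1. These are single pairs of libraries with no test. Within a library, the ratio of Klf1 to Alas2 was 0.187, 0.0734, 0.0967 and 0.0421 in cKO 1 to 4 and 0.0453, 0.0579 and 0.0217 in wild type 1 to 3, and that of Bpgm to Klf1 was 2.16, 5.88, 3.98 and 16.4 in cKO and 10.4, 10.6 and 30.3 in wild type libraries. cKO 1, 2 and 3 thus had more Klf1 per Alas2 and less Bpgm per Klf1 than any other library.

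**Figure D5:**
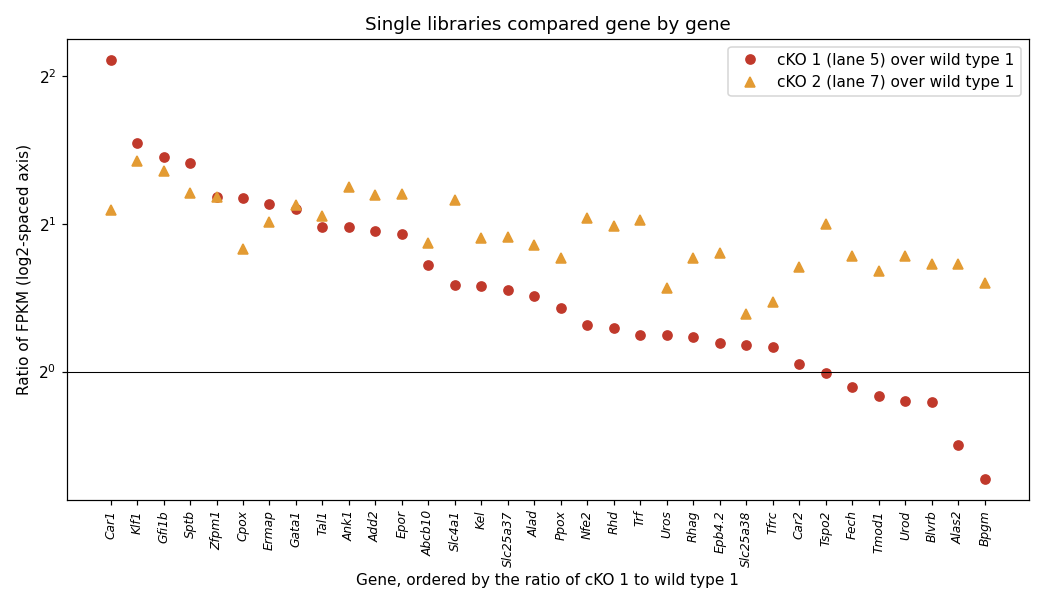
Ratio of FPKM in cKO 1 (circles) and in cKO 2 (triangles) to wild type 1, on a log2-spaced axis, for the 34 genes ordered by the first ratio. The circles descend from 4.32 for Car1 to 0.605 for Bpgm and pass below 1 for 7 genes, whereas all triangles lie above 1.

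The authors' deposited table of their own comparison, made with Cuffdiff from the same 7 libraries per the submitters' processing notes, lists all 34 genes as tested. Its arms are headed q1 and q2 with no genotype named, so its direction is given by those names. Foxp1 was lower in q2 there, with a Cuffdiff test score of -1.39 and a q-value of 0.0689. Of the 34 genes, 28 in the authors' deposited table had a q-value under 0.05 and were higher in q2, where 14.1% of its 12100 tested rows were, and 0 were lower. The authors' deposited table gave no such q-value for Alas2 (0.243), Bpgm (0.0953), Car2 (0.110), Slc4a1 (0.280), Tfrc (0.116) and Tmod1 (0.445).

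Related genes outside the 34 followed in part. Of all genes tested, limma called 1.27% higher in cKO without the lane term and 9.59% with it. In lane 7 it called 8.67% higher and 58.2% lower. The counts of each list, here and below, are to be read beside these shares. Of 26 further heme and iron genes tested, 1 rose in cKO without the lane term, Hfe, a regulator of iron sensing, by 1.68 ± 0.31 (SE, limma adjusted p = 0.0484), and 6 rose with it, with a list median of 0.77. Among the 6 were Hmox1, the heme-degrading oxygenase, by 2.01 ± 0.26 (limma adjusted p = 0.000748), Slc40a1, the iron exporter ferroportin, by 2.10 ± 0.31 (limma adjusted p = 0.00109), and the biliverdin reductase Blvra by 0.68 ± 0.15 (limma adjusted p = 0.0126). These are genes of iron recycling by macrophages as well as of erythroid cells. In lane 7, 17 of the 26 rose and 5 fell by limma, with Slc25a39, a mitochondrial glutathione importer, higher by 1.48, and Alas1, the housekeeping counterpart of Alas2, lower, at -0.99 on the log2 scale, where the median of all genes tested was -0.50.

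Of 28 further red cell membrane and cytosol genes, limma called 0 in cKO without the lane term (5 higher and 1 lower at an unadjusted p under 0.05). With the lane term 3 rose (Tpm1 by 0.69, Epb4.1 by 0.92 and Gclm by 1.18) and Add3 fell by 0.85 on the log2 scale. The list median was 1.15 without and 0.94 with the lane term. In lane 7, 20 of the 28 rose and 3 fell, with Prdx2, an antioxidant enzyme abundant in red cells, higher by 2.27 (limma). Of 26 further erythroid regulators and remodelling genes, limma called 0 without the lane term (3 at an unadjusted p under 0.05), and Kit, Cited4 and Mkrn1 rose with it, by 1.19, 1.33 and 0.84, while 15 rose and 7 fell in lane 7, with Bnip3l, which clears mitochondria, higher by 1.46. With the lane term, 3 of 28 and 3 of 26 higher are shares near the 9.59% of all genes tested. Kit, the stem cell factor receptor, had 3.75, 1.49, 1.85 and 7.69 FPKM in cKO and 0.762, 1.59 and 1.71 FPKM in wild type libraries, an order unlike that of the 34 genes. The 3 lists' medians for lane 7 over lane 5 were 0.63, 1.52 and 1.14.

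Of the globins, the rows with OK status in all libraries and enough signal were Hbq1a and Hbq1b. Hbq1b had 10.3, 23.3, 34.8 and 1.01 FPKM in cKO and 12.7, 2.11 and 0.678 FPKM in wild type libraries, and both genes rose in lane 7 by limma (2.05 and 2.87) and were not called between genotypes (0 at an unadjusted p under 0.05 without the lane term, 1 with it). Hbb-b1, the major adult beta globin, had no OK value in cKO 2 and cKO 3. It was listed at 2906 and 328 FPKM in cKO 1 and cKO 4, and at 5888, 917 and 531 FPKM in wild type 1 to 3. Near-identical globin copies share reads, so these values are uncertain.

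Markers of other cells differed between libraries too, in orders of their own. The summed FPKM of 9 red pulp macrophage markers, cells that take up aged red cells and recycle their iron, was 396, 779, 1048 and 466 in cKO 1 to 4 and 383, 96.6 and 58.2 in wild type 1 to 3. In limma with the lane term 9 of the 9 rose in cKO (1, Treml4, without it) and 9 rose in lane 7. Like Trf and unlike the other 33 genes, this sum was higher in cKO 4 than in cKO 1. That was not particular to red pulp macrophage markers. The sums of monocyte and macrophage, neutrophil, platelet and megakaryocyte, T cell and B cell markers were also higher in cKO 4. Those of proliferation genes and of mast cell and basophil markers were lower. Hmox1 is 1 of the 9 red pulp macrophage markers. The ratio of Trf to Hmox1, a pair chosen after its values were seen, lay between 0.546 and 0.679 in cKO and between 0.564 and 0.619 in wild type libraries. The part of red pulp macrophages in the Trf result was not tested.

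The 8 monocyte and macrophage markers summed to 461, 494, 406 and 614 FPKM in cKO and 165, 110 and 139 FPKM in wild type libraries, and 4 of 8 rose in cKO without the lane term (Lyz2, Cd68, Csf1r and Fcgr1) and 8 with it (limma). Of 8 platelet and megakaryocyte markers, which share Nfe2, Gata1 and Gfi1b with the erythroid lineage, limma called 0 without the lane term (8 at an unadjusted p under 0.05), 5 rose with it, and 4 rose in lane 7. Their summed FPKM was 40.5, 73.3, 118 and 93.2 in cKO and 40.7, 26.5 and 22.8 in wild type libraries. Of 6 neutrophil markers, 2 rose in cKO without the lane term and 5 with it, and limma called 0 between lanes (1 at an unadjusted p under 0.05). Of 7 T cell markers, limma called 0 without the lane term (1 at an unadjusted p under 0.05), 5 rose with it, and all 7 fell in lane 7, with a median log2 difference of -1.54. The 8 mast cell and basophil markers listed summed to 0.966 to 7.29 FPKM in cKO and 0.256 to 0.627 FPKM in wild type libraries, and none passed the filter on low values.

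Proliferation genes had an order of libraries near that of the 34 genes, with a sum of 309, 300, 565 and 73.8 FPKM in cKO and 173, 66.3 and 29.0 FPKM in wild type libraries. Of 13 proliferation genes tested, limma called 0 between genotypes without the lane term (8 at an unadjusted p under 0.05), 7 rose with it and 13 rose in lane 7. B cell markers ran the other way, with a sum of 1574, 1301, 1336 and 2071 FPKM in cKO and 2219, 2560 and 2636 FPKM in wild type libraries. Of the 10, limma called 0 without the lane term (4 lower at an unadjusted p under 0.05), 3 fell in cKO with it and 7 fell in lane 7. Their median lane difference of -0.58 was close to the -0.50 of all genes tested. The part of B cell content, other cells and cell division in the differences of the 34 genes was not tested.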

How the data were processed

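RNA-seq libraries (Nextera kit, per the labels' protocols) were processed by the authors with TopHat2, Cufflinks and Cuffdiff, per the submitters' processing notes, which name no versions and the build mm9. The positions in the deposited FPKM table are those of GRCm38: 99.5% of 21362 symbols matched once overlapped their GENCODE M21 gene. The strand setting is not given in the sources used here. The authors' deposited comparison table holds p-values, q-values and a test score. Deposited FPKM values were used as they stand, without read counts, so no count model was run. Depth is unknown and no counting interval is given.

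Of 23845 rows, 23508 had status OK in all libraries, and 10065 with a mean of at least 1 FPKM were tested. limma 3.58.1 (R 4.3.3) was fitted to log2(FPKM + 0.5) over all of them with a trended variance, Benjamini-Hochberg adjustment and a threshold of 0.05, without a covariate, with lane as a term, and with an interaction. The code was tested on simulated data. Groups and replicate numbers came from the sample titles and lanes from the descriptions. The genes, lists and tests were chosen with earlier results of these data known. All 34 genes are named, and of other lists the 4 smallest p-values among genes called. Pseudocounts, filters, variance settings, centring, quantile normalization, a replicate block, single lanes and each library left out were tried as alternatives. A few genes that this rule would name are not reported here.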

Additional observations from a re-analysis of the deposited data

How the results depend on the processing

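For the genotype comparison without the lane term, limma called 0 of the 34 genes and 133 of all genes. Of all genes it called 55 with a pseudocount of 1, 0 without the filter on low values (2237 at an unadjusted p under 0.05), 6 with a mean of at least 5 FPKM, 304 with median centring, 1085 with lane as a term, 2228 with lane as a term and centring (952 higher and 1276 lower, against 965 and 120 uncentred), 612 within lane 5, 283 within lane 7, and 0 to 220 with 1 library left out (220 without wild type 1, and 0 or 1 without any other). Of the 34 genes it called 3 with lane as a term, 1 with lane as a term and centring, 1 within lane 5, 11 within lane 7, and 0 to 1 with 1 library left out, while their median log2 fold change ran from 1.07 (without wild type 3) to 2.71 (without wild type 1). With lane as a term, alternatives chosen after seeing the data gave 1982 calls of all genes with quantile normalization and 709 (without cKO 3) to 2000 (without cKO 4) with 1 library left out, and 1 of the 34 genes with centring or quantile normalization and 1 to 34 with 1 library left out, with a median log2 fold change of 0.62 to 2.17. For lanes, 6733 of all genes were called, 4247 with a mean of at least 5 FPKM and 6825 with robust variances (749 higher). With 1 library left out, 5783 to 6648 of all genes were called. Of the 34 genes 33 were called, 11 with robust variances and 26 to 34 with 1 library left out. Centring moved the median lane difference of all genes from -0.50 to -0.01 and that of the 34 genes from 2.23 to 2.72. For Foxp1, centring gave a log2 difference of -0.81 with an exact permutation p of 0.0286. The causes were not tested. No direction of any of the 34 genes was reversed in these comparisons.

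Same-numbered libraries did not deviate together (correlations of -0.41, -0.50 and -0.69). Each of these pairs joined libraries of different lanes, and the lane difference was not removed. The correlations therefore cannot decide whether the replicate numbers pair the samples. With a replicate block, which leaves out cKO 4, limma called 0 of the 34 genes and 0 of all genes (34 and 1161 at an unadjusted p under 0.05), and no library correlated best with its own number. Limits: lane and genotype are partly entangled, groups hold 4 and 3 libraries, reads of near-identical copies cannot be separated in FPKM, and depth is unknown.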
